A study of Homo sapiens with 6 samples.

Results

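The EGR and AP-1 factors are transcription factors of the immediate early response, and their transcripts were followed here in adrenocortical cells kept for 18 h with a cAMP analogue. The members were 10 genes chosen by symbol (EGR1, EGR2, EGR3, FOS, FOSB, FOSL1, FOSL2, JUN, JUNB and JUND), and every probe set that the platform annotation gives to a single one of them was taken. This found 17 probe sets for 9 genes among 22215 probe sets, which name 11963 genes. EGR2 is not analysed here. NCI-H295A, a steroid-producing line from a human adrenocortical carcinoma, was grown in low-serum medium with insulin and selenium and measured on 6 Affymetrix arrays. Of these, 3 came from plates kept with 8-Br-cAMP at 1 mM for 18 h and 3 from control plates without it. The titles call the agent cAMP, while the design text gives 8-Br-cAMP. This is a cell-permeable form of the messenger by which the pituitary hormone ACTH acts on normal adrenocortical cells. Both groups are the same tumour line at a single time point. The design text speaks of 3 separate experiments without saying which plates were grown together, and the p-values cover the spread of these arrays alone, part of which may be technical.

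EGR proteins bind GC-rich DNA through zinc fingers. FOS and JUN proteins bind as leucine zipper dimers, together called AP-1, to the AP-1 site. JUN proteins can pair with each other, whereas FOS proteins need a JUN partner. Their genes are transcribed within minutes of a stimulus, without new protein synthesis, and most of them fall back within hours. cAMP reaches them mainly through protein kinase A and CREB, which binds the cAMP response element (CRE), and mitogens mainly through serum response factor, which binds the CArG box.

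Promoters of members that passed the test of change given below and of members that did not are shown. The reason is that the cAMP signal is known to act on such promoters through the CRE. Promoters of 8 member genes from RefSeq (GRCh38.p14), from 250 bases before to 50 after the start of the gene, were searched, and FOSL1 and EGR3 are not used here. The 250 bases before the start are printed for 5 of them, 5' to 3' on the strand of the gene. Capitals mark the CRE core TGACG on either strand (CGTCA where it lies on the other strand), the full CRE TGACGTCA, which contains that core, and the CArG box. The locations are chr5:138465229-138465478 on the plus strand for EGR1, chr19:12791236-12791485 plus for JUNB, chr19:45467746-45467995 plus for FOSB, chr14:75278578-75278827 plus for FOS and chr19:18281623-18281872 minus for JUND.
EGR1: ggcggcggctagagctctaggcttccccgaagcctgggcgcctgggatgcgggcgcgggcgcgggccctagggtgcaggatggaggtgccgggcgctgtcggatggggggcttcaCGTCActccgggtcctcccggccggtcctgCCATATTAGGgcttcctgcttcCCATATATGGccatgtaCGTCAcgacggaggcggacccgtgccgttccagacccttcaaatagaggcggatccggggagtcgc
JUNB: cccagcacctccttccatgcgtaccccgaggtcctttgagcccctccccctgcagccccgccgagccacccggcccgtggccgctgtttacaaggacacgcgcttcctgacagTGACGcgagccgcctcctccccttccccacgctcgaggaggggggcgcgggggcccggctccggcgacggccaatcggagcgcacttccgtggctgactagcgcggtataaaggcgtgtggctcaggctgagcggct
FOSB: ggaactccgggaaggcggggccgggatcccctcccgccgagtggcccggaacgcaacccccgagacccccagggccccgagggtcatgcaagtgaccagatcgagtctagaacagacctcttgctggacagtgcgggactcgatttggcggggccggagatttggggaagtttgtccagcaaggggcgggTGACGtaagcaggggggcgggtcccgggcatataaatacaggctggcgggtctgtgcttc
FOS: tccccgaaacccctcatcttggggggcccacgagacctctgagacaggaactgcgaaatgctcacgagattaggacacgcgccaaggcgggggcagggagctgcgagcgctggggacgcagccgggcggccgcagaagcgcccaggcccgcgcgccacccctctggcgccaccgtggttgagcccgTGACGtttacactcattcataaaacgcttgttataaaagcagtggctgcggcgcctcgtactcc
JUND: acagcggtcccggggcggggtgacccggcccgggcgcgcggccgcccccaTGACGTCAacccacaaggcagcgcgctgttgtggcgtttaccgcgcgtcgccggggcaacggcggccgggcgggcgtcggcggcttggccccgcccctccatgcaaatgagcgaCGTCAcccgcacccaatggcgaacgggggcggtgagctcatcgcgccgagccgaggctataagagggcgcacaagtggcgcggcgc

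All 8 genes held a TGACG core in at least 1 promoter, against 24.6% of 35116 promoters of the same length. That share counts promoters and not genes, and EGR2 had 3 starts, of which only start 3 held the core. In EGR1 the cores began 135 and 66 bases upstream of the start, on both sides of CArG boxes at 105 and 83 bases. Within the searched bases, CArG boxes (CC, then 6 bases of A or T, then GG) were matched in EGR1 and EGR2 alone of the 8. They were matched in 1.29% of all promoters. Boxes farther from the start were not searched for. The core lay at 137 bases in JUNB, 64 in FOS and 60 in FOSB, and each of these promoters also held TATAAA, found in 11.5% of all, at 31, 33 and 30 bases. JUND alone held the full TGACGTCA, found in 1.85% of all, at 200 bases. The AP-1 site TGANTCA was matched in FOSL2 alone, and in 7.71% of all promoters. These matches describe letters only. The core was in the promoters of members that passed the test of change and of members that did not. Not passing does not show that a member stayed the same.

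**Figure D1:**
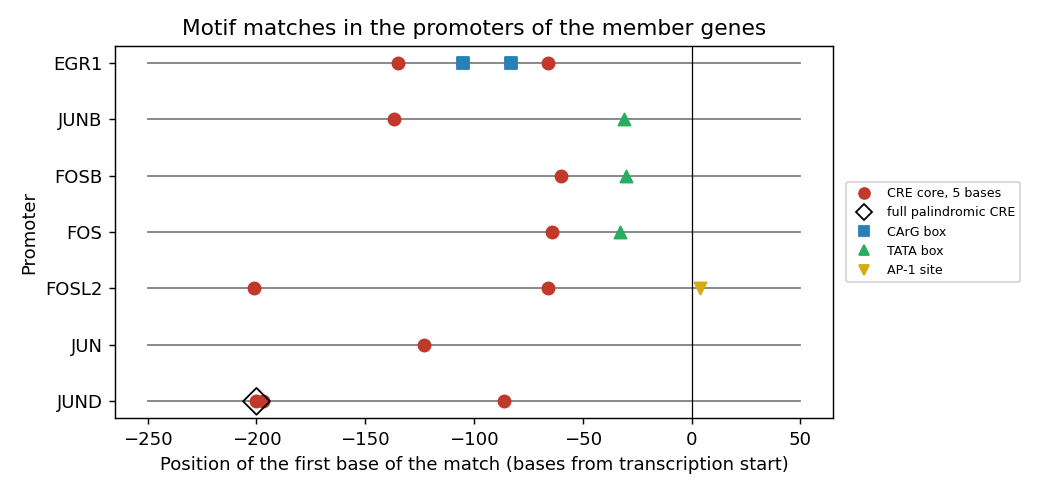
Position of each motif match, as bases from the transcription start (x axis), in the promoters of 7 member genes (lines, from 250 bases before to 50 after the start). Circles mark the CRE core TGACG on either strand, which every line holds. EGR1 is the only one of these 7 with CArG boxes (squares) within the bases shown.

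Each array's values had the same 2% trimmed mean (249.996 to 250.155), as scaled by the authors. The arrays numbered 1 stood apart in both groups. The actin control ratio of 3' to 5' signal, a sign of RNA integrity, was 38.8 on 8-Br-cAMP 1 and 5.72 on control 1, while the other 4 arrays had 1.93 to 2.405. The cells carried adrenocortical markers, with all 8 of 8 measured genes (STAR, CYP11A1, CYP17A1, CYP11B1, HSD3B2, NR5A1, MC2R and FDX1) above the filter on low signals. Their summed signal was 18427.3 to 40609.9 on 8-Br-cAMP arrays and 6182.8 to 21404.4 on control arrays. Markers of chromaffin cells summed to 172.7 to 292.9 on 8-Br-cAMP arrays and 164.7 to 318.6 on control arrays (5 measured, 1 above the filter). The sums were 75.2 to 127.1 and 107.6 to 210.6 for endothelium (4 measured, 1 above), 53.3 to 211.5 and 60.2 to 90.8 for leukocytes (3 measured, 1 above), and 241.3 to 315.5 and 191.5 to 387.2 for fibroblasts (5 measured, 2 above), 8-Br-cAMP arrays first in each. No marker was at 0, and the part of such cells in the results was not tested. In RNA from whole plates, more cells with a transcript and more transcript per cell cannot be told apart.

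On these arrays EGR1, FOSB, FOSL1 and JUNB were higher 18 h after 8-Br-cAMP, by a test in which arrays were paired by sample number. The levels of JUN, JUND, FOSL2, FOS and EGR3 did not pass it. The design text does not give this pairing, and without it 0 member probe sets passed the same test. The rises were 13.0-fold and 8.48-fold for the 2 probe sets of EGR1, 4.80-fold for FOSL1 and 2.56-fold for JUNB, as ratios of geometric means. For FOSB the size depended on how its very low control signals were treated, and no fold is given. FOSL1 also had low control signals, and with 16 added to every signal its log2 difference went from 2.26 to 1.87. Differences were fitted with limma on log2 signals, without and with the sample number as a term. The fit with the number is called the paired fit, and "rose" is used for an adjusted p under 0.05 in it. Of 17 probe sets, 5 passed the paired fit without a filter, all higher, where 1.83% of 22215 probe sets were called (0.9% higher and 0.927% lower). After the filter on low signals (a mean log2 signal above 5.51, a signal of 45.5) 14 probe sets of 6 genes were left. The paired fit called 4 of the 14, where 3.21% of 13329 were called (1.55% higher and 1.66% lower). FOSL1 is 1 of these 4, and it passed the filter through its 8-Br-cAMP arrays. It is also in the counts of higher probe sets among the 14 given below, and is no independent support for them. In a fit on arrays 2 and 3 alone, 5 of 14 were called higher and 0 lower, where 30.8% of all were called (12.1% higher and 18.7% lower). Without the pairing limma called 0 of 14 and 0 of all 13329 (0%), with 4 of 14 and 11.1% of all at an unadjusted p under 0.05. On 7 of 17 probe sets every 8-Br-cAMP array was above every control array, against 4.79% of all 22215, and of the 14 kept probe sets this held for 6, against 6.02% of all kept. Of the 14, 9 were higher in all 3 pairs, against 15.3% of all kept, 1 of them (JUN 201466_s_at) by 471.7 against 471 in pair 2. The median difference of the 14 was 0.67, against -0.13 over all kept. For 12 of the 14 the largest of the 3 pair differences was in pair 1, against 48.1% of all kept, and this enters the median. The 14 also hold several probe sets of the same genes, so the median does not describe 14 separate genes.

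**Figure D2:**
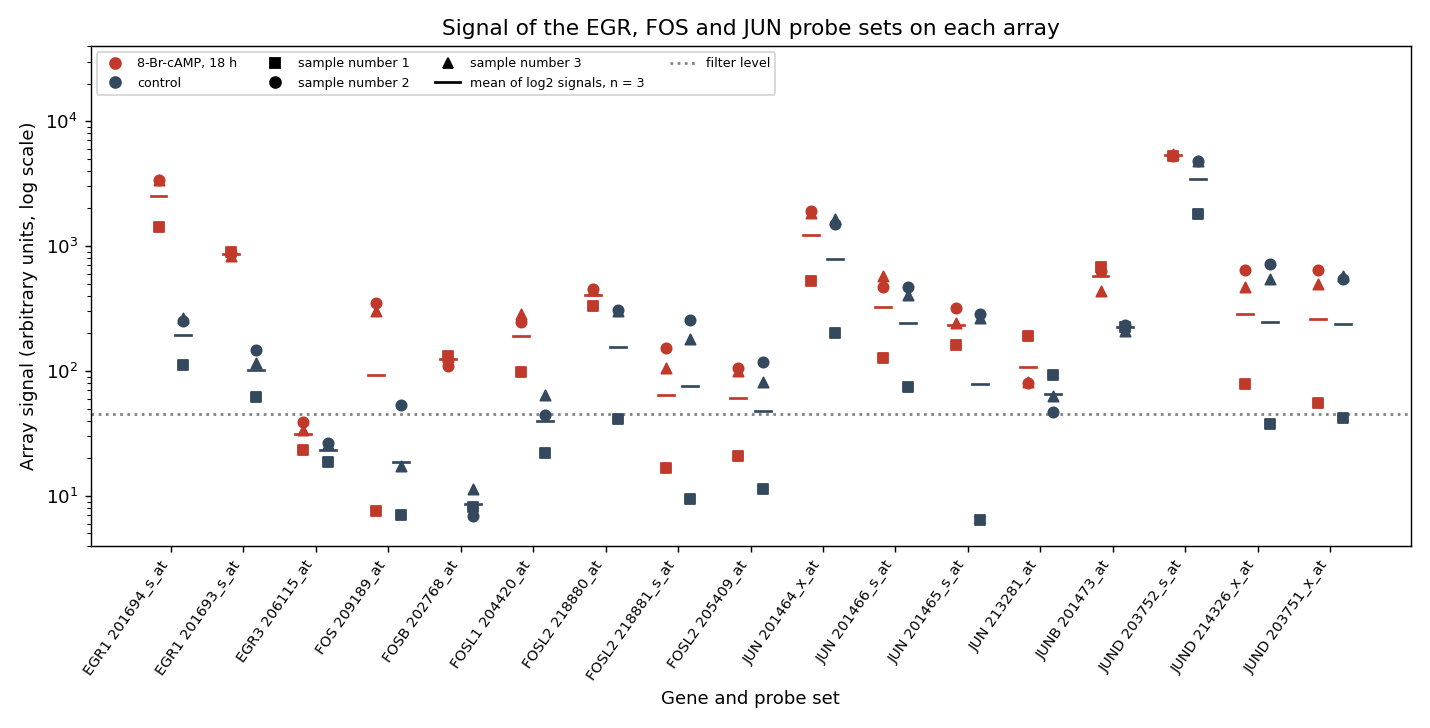
Array signal (y axis, log scale, arbitrary units) of each member probe set (x axis) on each 8-Br-cAMP array (red, left) and control array (dark, right), with the sample number as symbol, the mean of log2 signals as a bar (n = 3) and the filter level of 45.5 as a dotted line. EGR1, FOSB, FOSL1 and JUNB separate the groups, as do FOSL2 218880_at and JUND 203752_s_at, which did not pass the paired fit. The squares (number 1) lie far below the other arrays for several FOSL2, JUN and JUND probe sets.

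EGR1 encodes a zinc finger activator that is switched on by growth factors and hormones. Its probe set 201694_s_at had signals of 1427.4, 3357.4 and 3403.3 on 8-Br-cAMP arrays 1, 2 and 3, against 111.5, 251.9 and 263.8 on controls 1, 2 and 3. The groups were far apart, and number 1 was the lowest array within each. The log2 signal averaged 11.31 ± 0.72 with 8-Br-cAMP and 7.61 ± 0.70 in controls (SD, n = 3 each), a difference of 3.70 (SE 0.19, 95% interval 3.26 to 4.14, paired limma adjusted p = 0.00486; 0.0548 without pairing). The 3 pairs gave 3.68, 3.74 and 3.69 on the log2 scale. The low number 1 arrays thus left the difference within each pair nearly the same.

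The other EGR1 probe set, 201693_s_at, had signals of 895.3, 871.8 and 830.8 on 8-Br-cAMP arrays, against 62.2, 147.1 and 116.2 on control arrays. Here the 8-Br-cAMP arrays were all alike, and control 1 was the lowest. The log2 difference was 3.08 (SE 0.29, paired limma adjusted p = 0.0109; 0.0511 without pairing), with 3.85, 2.57 and 2.84 in pairs 1, 2 and 3. Both probe sets therefore gave a rise in every pair, while the order of the pairs differed. EGR3, a relative that is also an immediate early gene, had signals of 23.5, 39.1 and 33.6 on 8-Br-cAMP arrays and 18.6, 26.4 and 26.0 on control arrays. All 6 values lay below the filter level and the groups overlapped. The log2 difference was 0.42 (95% interval -0.88 to 1.73, paired limma adjusted p = 0.792 without a filter), which does not show that EGR3 stayed the same.

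FOSB, a FOS protein whose splice forms include a long-lived one known from brain, was near the bottom of the scale in controls. Its signals were 131.4, 109.7 and 130.1 on 8-Br-cAMP arrays, against 8.1, 6.9 and 11.4 on control arrays. All 3 treated arrays were above the filter level and all 3 controls far below it, so the size of the rise is not settled. The log2 difference of the deposited signals was 3.84 (SE 0.53, paired limma adjusted p = 0.0174 without a filter; 0.0558 without pairing), with 4.02, 3.99 and 3.51 in pairs 1, 2 and 3. With signals below the 20th percentile raised to it the difference was 3.19 and the paired call was lost (adjusted p = 0.195), and without the intensity trend it was lost too (0.293). With a pseudocount of 16 the difference was 2.49 (adjusted p = 0.0236).

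FOSL1 (Fra-1), a FOS relative without the strong activation domain of FOS, had signals of 97.5, 247.9 and 287.9 on 8-Br-cAMP arrays, against 22.0, 44.4 and 64.4 on control arrays. The groups did not overlap, and number 1 was again the lowest array of each. The control mean and controls 1 and 2 lay under the filter level, so FOSL1 passed the filter through its 8-Br-cAMP arrays. It is therefore no independent support for the counts of members called or higher among the kept probe sets. The log2 signal averaged 7.58 ± 0.85 with 8-Br-cAMP and 5.31 ± 0.79 in controls (SD, n = 3 each), a difference of 2.26 (SE 0.29, 95% interval 1.57 to 2.95, paired limma adjusted p = 0.0183; 0.197 without pairing). Pairs 1, 2 and 3 gave 2.15, 2.48 and 2.16. The spread of single arrays was thus wider than that of the pair differences. With a pseudocount of 16 the difference was 1.87 (adjusted p = 0.0170).

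FOS, the founding member of the family, divided by sample number. Its signals were 7.5, 350.4 and 302.4 on 8-Br-cAMP arrays, against 7.0, 53.4 and 17.5 on control arrays. On the number 1 arrays FOS was at the bottom of the scale in both groups, and on the others it was several-fold higher with 8-Br-cAMP. The pair differences were 0.10, 2.71 and 4.11 on the log2 scale, with a mean of 2.31 (95% interval 0.54 to 4.08, paired limma adjusted p = 0.197 without a filter). On arrays 2 and 3 alone the difference was 3.41 (limma adjusted p = 0.00240), in a fit without a filter that called 16.6% of all probe sets (6.61% higher and 9.95% lower). That fit rests on arrays 2 and 3, whose likeness may be technical.

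FOSL2 (Fra-2), the relative of FOSL1, had 3 probe sets that disagreed. Probe set 218880_at had signals of 334, 456.3 and 443.3 on 8-Br-cAMP arrays, against 41.6, 307 and 301.5 on control arrays. The groups did not overlap, but most of the difference came from control 1. The pairs gave 3.01, 0.57 and 0.56, with a mean of 1.38 (95% interval 0.20 to 2.55, paired limma adjusted p = 0.180). Probe set 218881_s_at had 16.6, 152 and 105.6 on 8-Br-cAMP arrays and 9.5, 255.6 and 179.9 on control arrays, with pair differences of 0.81, -0.75 and -0.77 (mean -0.24, adjusted p = 0.790). Probe set 205409_at differed by 0.34 (adjusted p = 0.669). In pairs 2 and 3 the first of these probe sets was higher with 8-Br-cAMP and the second lower, so no direction can be given for FOSL2. In the fit on arrays 2 and 3 alone, 218880_at was higher by 0.56 (limma adjusted p = 0.0128), and 218881_s_at differed by -0.76 (0.0538). With the pairing kept on the same 4 arrays the second of these passed as lower (-0.76, adjusted p = 0.00857) and the first as higher (0.56, 0.00893). Probe set 218880_at also passed as higher without pair 2 (1.78, paired limma adjusted p = 0.0321) and without pair 3 (1.79, 0.0252). Both of these fits include control 1.

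**Figure D3:**
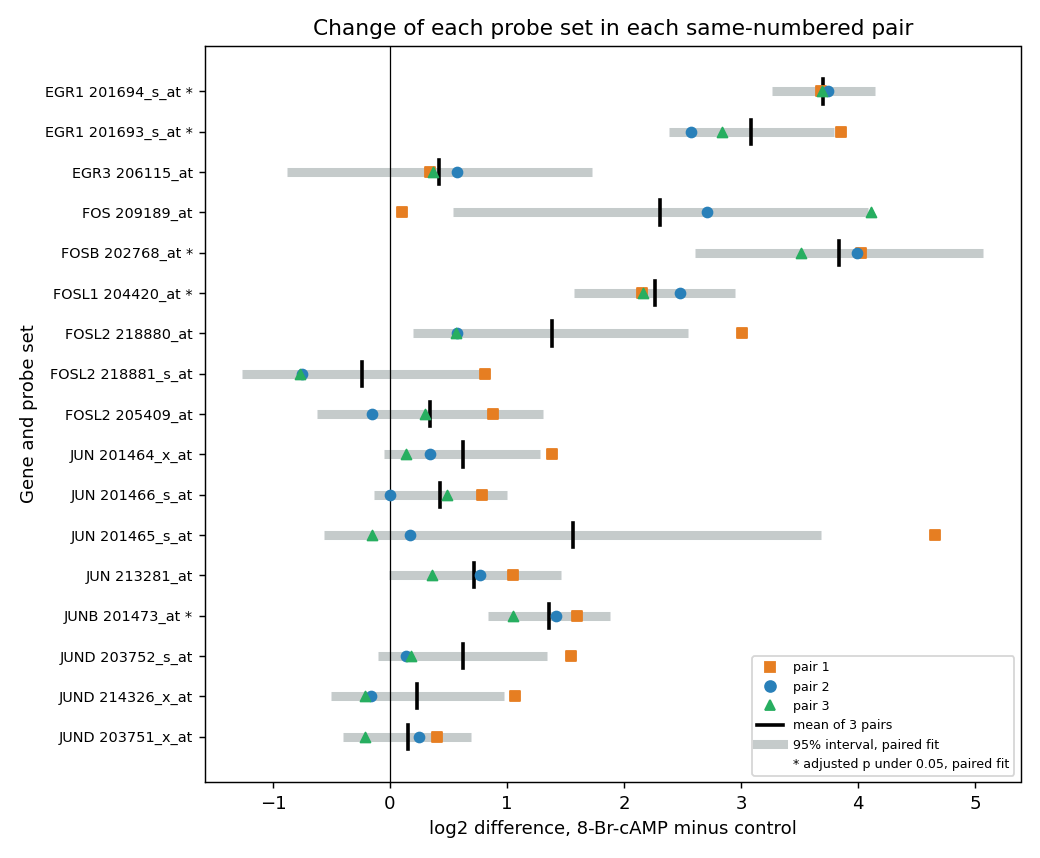
log2 difference, 8-Br-cAMP minus control (x axis), of each member probe set (rows) in same-numbered pairs 1, 2 and 3 (symbols), with the mean (black bar) and the 95% interval of the paired fit (grey, n = 3 pairs). The pairs of EGR1 201694_s_at lie between 3.68 and 3.74, whereas JUN 201465_s_at runs from -0.15 to 4.66.

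Of the 3 JUN genes, JUNB passed the paired fit. It encodes a JUN protein that can oppose JUN at some promoters. Its signals were 683.7, 627.4 and 434.7 on 8-Br-cAMP arrays, against 225.1, 234.2 and 209.9 on control arrays. The controls were closely alike, number 1 included, and all treated arrays were above them. The log2 signal averaged 9.16 ± 0.35 with 8-Br-cAMP and 7.80 ± 0.08 in controls (SD, n = 3 each), a difference of 1.36 (SE 0.22, 95% interval 0.84 to 1.88, paired limma adjusted p = 0.0307; 0.132 without pairing), with 1.60, 1.42 and 1.05 in pairs 1, 2 and 3. The paired call was lost without the intensity trend (adjusted p = 0.0713) and without pair 2 (0.0724).

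JUN, the main partner of FOS, had 4 probe sets above the filter, of which 0 passed. Probe set 201464_x_at had signals of 520.7, 1893.2 and 1824.2 on 8-Br-cAMP arrays, against 200.1, 1499.9 and 1658.5 on control arrays. The groups overlapped, and the number 1 arrays were several-fold below the others. The log2 difference was 0.62 (95% interval -0.05 to 1.28, paired limma adjusted p = 0.262), with 1.38 in pair 1 and 0.34 and 0.14 in pairs 2 and 3. Probe set 201466_s_at differed by 0.43 (adjusted p = 0.355), and 213281_at by 0.72 (0.240). The fourth, 201465_s_at, had 161.7, 319.9 and 240.4 on 8-Br-cAMP arrays and 6.4, 284.4 and 267.2 on control arrays. Its difference of 1.56 (adjusted p = 0.365) rested on control 1, since pairs 2 and 3 gave 0.17 and -0.15. Without pair 3 the paired fit called it higher (2.41, adjusted p = 0.0200). The suffix x_at marks probes that may also match other transcripts.

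JUND, a JUN protein usually present in resting cells, had 3 probe sets, of which 0 passed. Probe set 203752_s_at had signals of 5306.3, 5270.5 and 5420.2 on 8-Br-cAMP arrays, against 1810.6, 4795.3 and 4782.3 on control arrays. Every treated array was above every control array, but by little except for control 1. The log2 difference was 0.62 (95% interval -0.10 to 1.34, paired limma adjusted p = 0.292), with 1.55, 0.14 and 0.18 in pairs 1, 2 and 3. Probe set 214326_x_at had 78.6, 646 and 466.6 on 8-Br-cAMP arrays and 37.5, 722.6 and 541.3 on control arrays, and differed by 0.23 (adjusted p = 0.710). Probe set 203751_x_at differed by 0.15 (adjusted p = 0.758). Over arrays 2 and 3 alone, the 3 differences were 0.16, -0.19 and 0.02 (adjusted p 0.231 to 0.926).

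Whether members changed by unequal amounts was tested on the log2 ratio of 2 probe sets within each array, with an exact two-sided permutation test over arrays, for 5 pairs of probe sets. With 3 against 3 arrays this test cannot go below 0.10, and the Benjamini-Hochberg adjusted p was 0.50 for all 5. EGR1 exceeded JUNB by 2.34 in log2 difference (2.08, 2.31 and 2.64 in the pairs), with no overlap between groups (exact p = 0.10). JUNB exceeded JUN 201464_x_at by 0.74 (0.22, 1.09 and 0.91 in the pairs, exact p = 0.50). It exceeded JUND 203752_s_at also by 0.74 (0.05, 1.29 and 0.87, exact p = 0.30). FOSL1 exceeded FOSL2 218880_at by 0.89 (-0.86, 1.91 and 1.60, exact p = 0.20). The 2 EGR1 probe sets differed from each other by 0.62 (-0.17, 1.17 and 0.85, exact p = 0.40). The test shuffles single arrays and does not use the pairing. The ratio differed in the same direction in all 3 pairs for EGR1 over JUNB, JUNB over JUN 201464_x_at and JUNB over JUND 203752_s_at. It did not for FOSL1 over FOSL2 218880_at or the EGR1 probe sets. Other JUN and JUND probe sets were not tested in this way, and the direction need not hold for them. JUN 201465_s_at differed by 4.66, 0.17 and -0.15 in pairs 1, 2 and 3, and JUNB by 1.60, 1.42 and 1.05. In pair 1 JUNB was thus the smaller.

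Several member probe sets were much lower on the number 1 arrays in both groups. Of the 14 kept probe sets, 5 were at least 4-fold lower on both number 1 arrays than the mean log2 signal of arrays 2 and 3 of the same group, against 1.35% of all 13329 kept. These were FOSL2 218881_s_at and 205409_at, JUN 201466_s_at, and JUND 214326_x_at and 203751_x_at. JUND 203751_x_at, for example, had log2 offsets of -3.35 on 8-Br-cAMP 1 and -3.73 on control 1. JUNB (0.39 and 0.02) and FOSB (0.14 and -0.13) showed little such offset on 8-Br-cAMP 1 and control 1, and JUN 213281_at had the opposite one (1.24 and 0.76). Probe sets of 1 gene thus differed in how the number 1 arrays placed them. For 12 of 14 kept member probe sets pair 1 had the largest difference of the 3 pairs, against 48.1% of all kept. The number 1 arrays also had the highest 3' to 5' ratios, and the part of this in the members' differences was not tested.

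**Figure D4:**
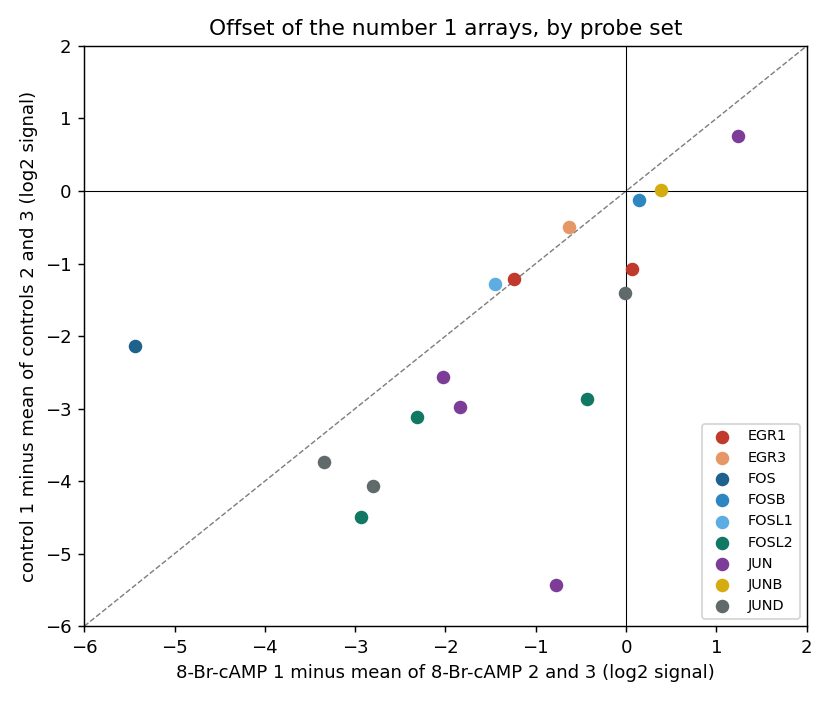
log2 signal of array 1 minus the mean of arrays 2 and 3 for each member probe set (points, coloured by gene), in the 8-Br-cAMP group (x axis) and the control group (y axis). Points on the dashed line have the same offset in both groups, and most points lie below it, as JUN 201465_s_at (-0.78 and -5.43) does.

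Of the partners and inhibitors of AP-1 and ATF dimers, 13 genes were on the array and 11 above the filter, of which 2 rose and 0 fell in the paired fit, where 3.68% of all 7927 genes were called (1.73% higher, 1.96% lower). The median log2 difference was 0.43, and -0.14 over all genes. The genes that rose were BATF and MAFF. BATF is a leucine zipper protein that pairs with JUN and lacks an activation domain. MAFF, a small MAF protein, also lacks such a domain. BATF had signals of 100.4, 369.4 and 303.7 on 8-Br-cAMP arrays, against 22.2, 109.9 and 54.6 on control arrays, a log2 difference of 2.13 (SE 0.28, paired limma adjusted p = 0.0198). MAFF had 651.9, 1832.3 and 2023.2 on 8-Br-cAMP arrays, against 42.1, 550.8 and 616.4 on control arrays, a difference of 2.47 (SE 0.45, adjusted p = 0.0440). Pair 1 gave 3.95 for MAFF, and pairs 2 and 3 gave 1.73 and 1.71. Both genes were higher in all 3 pairs, though treated array 1 overlapped the controls for BATF. Arrays 2 and 3 alone called 4 of the 11 higher and 1 lower, where 33.3% of all genes were called (12.8% higher and 20.5% lower).

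Of 6 EGR partners on the array 5 were above the filter and 0 of these passed, against 3.68% of all genes, with a median log2 difference of -0.20. NAB2, a co-repressor that binds EGR proteins and is itself an EGR target, had signals of 91.3, 154.4 and 145.9 on 8-Br-cAMP arrays, against 20.9, 72.7 and 61.9 on control arrays. The groups did not overlap (log2 difference 1.48, SE 0.35, paired limma adjusted p = 0.0767). SP1, which binds GC-rich sites that can overlap those of EGR1, differed by -0.61 (adjusted p = 0.340). NAB2 was the 1 of 5 called, as higher, on arrays 2 and 3 alone, where 12.8% of all genes were.

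Neither the serum response and other upstream factors nor the MAP kinases and ribosomal S6 kinases that act on them passed in the paired fit (0 of 10 and 0 of 8 genes above the filter, of 11 and 8 on the array, against 3.68% of all genes). Their median log2 differences were 0.05 and -0.50. MRTFB, a co-activator of serum response factor, differed by -0.95 (paired limma adjusted p = 0.0741), and MEF2A, a factor that acts on the JUN promoter, by -0.74 (0.146). MAPK9 and MAPK10, kinases of the JNK group that phosphorylate JUN, each differed by -0.85 (adjusted p = 0.117 and 0.155). Arrays 2 and 3 alone called 2 of 10 higher and 3 lower on the first list, and 0 of 8 higher and 3 lower on the second, beside 12.8% of all genes higher and 20.5% lower.

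Of 36 other immediate early genes on the array 31 were above the filter. Of these 4 rose and 2 fell, against 1.73% and 1.96% of all genes, with a median log2 difference of 0.47. The 4 were the orphan nuclear receptors NR4A3 (3.86) and NR4A1 (2.19), the small GTPase RHOB (1.70) and the pseudokinase TRIB1 (1.27, log2 differences, paired limma adjusted p 0.00893 to 0.0320). NR4A3 had signals of 1309.3, 348.7 and 316.5 on 8-Br-cAMP arrays, against 112.8, 13 and 32 on control arrays. Controls 2 and 3 and the control mean lay under the filter level, so it passed the filter through the treated arrays. The size of its difference is thus not settled, and NR4A3 is no independent support for the count of 4 that rose. RHOB had signals of 5340.9, 8892.2 and 9135.2 on 8-Br-cAMP arrays, against 1907, 2487.1 and 2671.8 on control arrays, and the groups were clearly apart. CCN2, a matricellular growth factor, and SGK1, a serum- and steroid-induced kinase, fell. CCN2 had signals of 30, 142.4 and 127.6 on 8-Br-cAMP arrays, against 81.5, 579.2 and 682.4 on control arrays (log2 difference -1.96, adjusted p = 0.0231). Control 1 lay within the range of the treated arrays, and all 3 pairs were lower with 8-Br-cAMP. SGK1 differed by -1.28 (adjusted p = 0.0262). Immediate early genes therefore moved in both directions at 18 h, and 25 of 31 did not pass. On arrays 2 and 3 alone 14 were called higher and 6 lower, against 12.8% and 20.5% of all genes.

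Of 18 textbook targets of AP-1 or EGR factors on the array 10 were above the filter. Of these 2 rose and 0 fell, against 1.73% and 1.96% of all genes, with a median log2 difference of 0.42. MT2A, a metallothionein whose promoter was among the early AP-1 examples, had a difference of 1.40 (SE 0.20, paired limma adjusted p = 0.0238). TIMP1, an inhibitor of metalloproteinases, also had 1.40 (SE 0.27, adjusted p = 0.0485), with 0.64 in pair 1 and 1.84 and 1.73 in pairs 2 and 3. On arrays 2 and 3 alone 5 of 10 were called higher and 1 lower, against 12.8% and 20.5% of all genes.

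**Figure D5:**
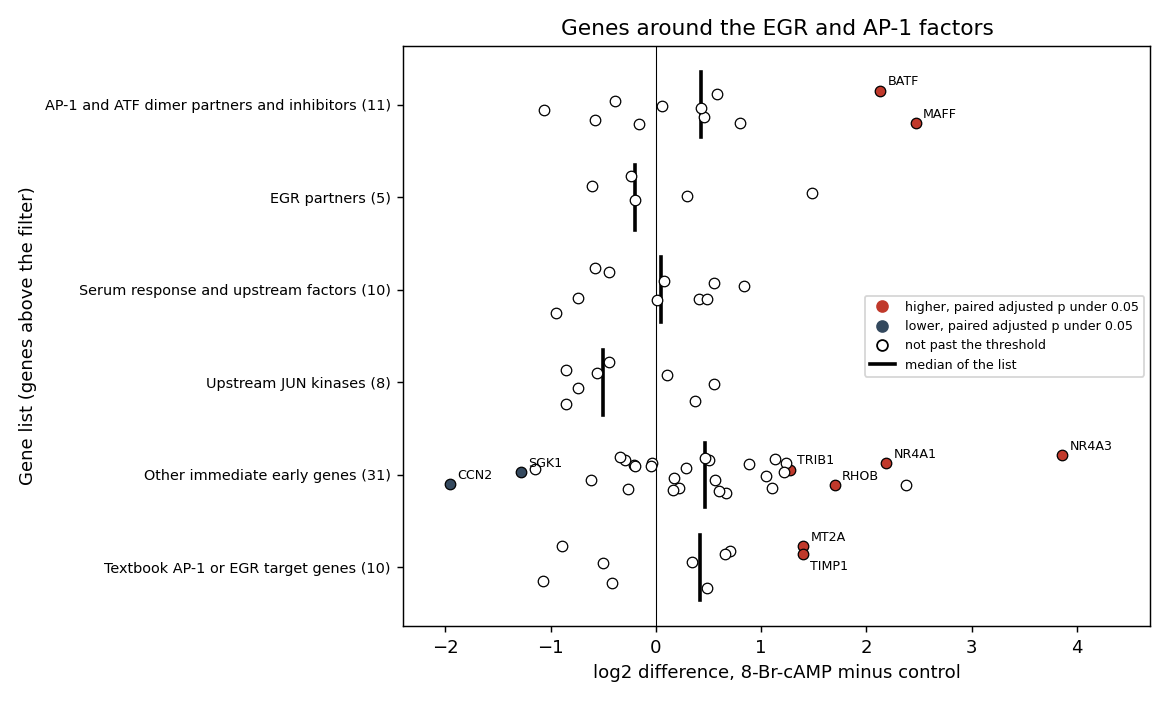
log2 difference, 8-Br-cAMP minus control (x axis), for each gene of the 6 lists above the filter (rows, 1 point per gene, vertical place within a row arbitrary), with the median of each list as a black bar. Red and dark points passed the paired fit as higher and lower, and only NR4A3 (3.86) lies above 3.

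Across the 6 arrays, the genes whose log2 signal followed EGR1 201694_s_at most closely were EP400, a chromatin remodelling ATPase (Pearson r 0.997), the zinc finger gene ZNF432 (0.997), RHOB (0.996), the insulin receptor substrate IRS2 (0.995) and the ETS factor ETV5 (0.995). ETV5 had signals of 1397.6, 1781.5 and 1862.9 on 8-Br-cAMP arrays, against 480.8, 755.9 and 731.9 on control arrays. Like EGR1, it was lowest on the number 1 array of each group. The genes closest to JUNB were DSN1, a kinetochore protein (0.994), the chaperone gene DNAJC3 (0.986), the RNA polymerase II gene POLR2A (0.982), CYP1B1 (0.978) and the cyclin gene CCNT1 (0.977). DNAJC3 had signals of 975.8, 748 and 569.6 on 8-Br-cAMP arrays, against 267.1, 218.9 and 185.9 on control arrays. EGR1 and JUNB correlated with each other at 0.871. These correlations describe 6 arrays that share the group difference and the number 1 offset, and the closest 5 were picked from all other genes above the filter.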

How the data were processed

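RNA from NCI-H295A cells was measured on 6 Affymetrix arrays, 3 per group, with groups and sample numbers taken from the titles. The authors deposited linear signal intensity values from GCOS 1.3, per the design text and the submitters' processing notes. The table holds 22277 probe sets, of which 62 array controls were left out. GEO's platform annotation gave 1 symbol to 19064 probe sets, several to 1043 and none to 2108, and probe sets with several were left unnamed. The arrays had nearly equal trimmed means, and the deposited scaling was kept. With 3 arrays per group, their number limits precision.

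Log2 signals went into limma 3.58.1 under R 4.3.3 (eBayes with an intensity trend, two-sided, Benjamini-Hochberg over all kept probe sets, threshold 0.05), after a filter at the 40th percentile of mean log2 signal. Member probe sets below it were fitted without a filter. The main fit had no block. The paired fit adds the sample number as a replicate block. Each array's deviation from its group mean correlated with that of its same-numbered partner at 0.603, 0.378 and 0.538 for numbers 1, 2 and 3, all over 0.1. Across numbers, 8-Br-cAMP 2 with control 3 gave 0.547 and 8-Br-cAMP 3 with control 2 gave 0.312, so the data set number 1 apart and do not tell pair 2 from pair 3. The numbers were used as pairs because every same-numbered correlation passed 0.1. The deviations are taken from each group's own mean. With number 1 apart in both groups, numbers 2 and 3 therefore tend to correlate under any pairing. For these numbers the criterion could hardly fail, so it gives no evidence of their pairing, on which the paired calls rest. A fit without both number 1 arrays had no block. For list genes the probe set of highest mean was used. All members are named, with the list genes that passed the paired fit, or else the 2 with the smallest p, and the 5 genes most correlated with EGR1 and with JUNB. Members and lists were chosen with earlier results of these data known. The fits were tested on simulated data, and many of the simulated differences were missed. For a simulated size of 2-fold, the paired fit recovered 0.299% and the fit without a block 0%. At 4-fold the shares were 26.3% and 10.7%, and at 8-fold they were 50.9% and 40.3%. The simulated arrays were built with same-numbered arrays as true pairs. The higher shares of the paired fit follow from that and say nothing on whether the real arrays were paired. A member or list gene that did not pass may therefore still have differed by such amounts. Exact permutation tests used scipy 1.17.1. Promoter sequences are from RefSeq.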

Additional observations from a re-analysis of the deposited data

How the results depend on the processing

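All 17 member probe sets kept the sign of their difference under quantile normalization and a common median, with and without the replicate block, although FOSL2 218881_s_at came to -0.01 with a common median. The median difference over all kept probe sets moved between -0.13 (deposited scale), -0.03 (quantile) and 0.09 (common median). Without the block 0 member probe sets and 0 of all passed. The counts were 1 and 17 with quantile normalization, 1 and 17 with a common median, 1 and 18 with the 60th percentile filter, 2 and 28 with the floor, 2 and 28 with a pseudocount of 16, and 5 and 4103 without both number 1 arrays (members, then all probe sets). With 1 array left out they ran from 0 to 2 and from 0 to 285, with 2 and 285 without 8-Br-cAMP 1, 1 and 58 without control 1, and 0 otherwise. With the replicate block the counts were 4 and 428. Combined with the block they were 4 and 337 with quantile normalization, 4 and 142 with a common median, 5 and 406 with no filter, 3 and 440 with the stricter filter, 4 and 481 with the floor, 4 and 548 with the pseudocount, 3 and 81 with no trend and 4 and 408 with robust variances. With 1 pair left out of the block fit they were 6 and 4680 without pair 1 (5 members higher and 1, FOSL2 218881_s_at, lower), 4 and 342 without pair 2, and 6 and fewer than 342 without pair 3. Fewer arrays or another set of tested probe sets enter some of these fits, and otherwise the cause was not tested.

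The 2 EGR1 probe sets and FOSL1 passed every alternative with the block (11, 11 and 10 of them). JUNB passed 9 of 11, with adjusted p up to 0.0724, and FOSB 7 of 9, up to 0.293. Without the block, the EGR1 probe sets passed 4 and 8 of 15 alternatives, FOSL1 1 of 14, JUNB 1 of 15 and FOSB 3 of 13. Alternatives without a filter for FOS, FOSB and EGR3 were chosen after seeing the data. Signs turned for probe sets that did not pass the paired fit on all arrays, of which FOSL2 218881_s_at passed it as lower without pair 1 (-0.76, adjusted p = 0.00857) and JUN 201465_s_at as higher without pair 3 (2.41, 0.0200). With 1 array left out, FOSL2 218881_s_at ran from -1.74 to 0.74 and 205409_at from -0.69 to 1.11. JUN 201464_x_at ran from -0.38 to 1.23, 201466_s_at from -0.43 to 1.10 and 201465_s_at from -0.25 to 2.49. JUND 214326_x_at ran from -1.12 to 1.17 and 203751_x_at from -1.10 to 1.26. With the block and 1 pair left out, FOSL2 218881_s_at came to 0.02 and 0.03 and JUND 214326_x_at -0.19, as it did without both number 1 arrays (-0.19).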
